A study of Homo sapiens with 12 samples.

Results

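KIF14, MDM4, DEK, SKP2, SYK, BCOR and CDH11 are 7 genes that studies of retinoblastoma have found gained, lost, mutated or needed for growth in tumours that have already lost RB1. They were taken by symbol from the deposited count table, and each matched 1 of its 19974 Ensembl genes. Their RNA was measured in Y79 and WERI-Rb-1, a pair of established human retinoblastoma cell lines labelled wild type (WT) in genotype. Each line had been kept for 12 h in 50 nM THZ1, a covalent inhibitor of the transcription kinase CDK7, or in the solvent, 0.1% DMSO. The 4 groups were Y79 with THZ1, Y79 with DMSO, WERI-Rb-1 with THZ1 and WERI-Rb-1 with DMSO, with 3 biological samples each and 12 libraries in all. Each line stands for 1 tumour, and a difference between the lines is a difference between these particular cell populations.

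Loss of RB1 frees E2F transcription factors and starts most retinoblastomas, and further changes of chromosome arms 1q, 6p and 16q or of single genes accompany their growth. KIF14, a mitotic kinesin, and MDM4, a partner and paralog of the ubiquitin ligase MDM2, lie on the gained arm 1q, and DEK, a chromatin protein, lies on the gained arm 6p. SKP2 is the substrate receptor of a ubiquitin ligase that degrades the cell cycle inhibitor p27, SYK is a tyrosine kinase best known from blood cells, BCOR is a corepressor inactivated in some tumours, and CDH11 is a cadherin on 16q.

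Total counts ranged from 29677575 to 37433574 per library, and levels are given as counts-per-million (CPM) after TMM scaling, which assumes that most genes do not change. Mitochondrial mRNAs took 8.44% to 11.2% of the counts in THZ1 libraries and 3.74% to 4.46% in DMSO libraries. Y79 THZ1 replicate 2 stood apart, with 13.3% of its counts in ribosomal protein genes against 9.47% and 9.78% in the other two. Of 14 photoreceptor and retinoblastoma markers, 12 or 13 exceeded 1 CPM in each group, CRX and OTX2 among them, and their summed level was between 2018 and 2789 CPM. In bulk RNA, fewer cells of a kind and less RNA per cell cannot be told apart.

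THZ1 lowered KIF14, SKP2, SYK and BCOR in both lines under every scaling tried. Plain library sizes and mitochondrial scaling move the genes of a line further down than TMM. A fall on the TMM scale therefore had to remain a fall under both, which adds no evidence. MDM4 was higher in both lines on the TMM scale, but not in WERI-Rb-1 by plain library size and in neither line by mitochondrial scaling. In Y79, 1 of the 7 genes was higher and 4 were lower with THZ1, against 29.9% of all 14865 tested genes higher and 38.5% lower. In WERI-Rb-1, 2 were higher and 5 were lower, against 27.7% higher and 37.2% lower among all tested genes. With 64.8% (WERI-Rb-1) and 68.3% (Y79) of all genes called, a call on any single gene was common. THZ1 and DMSO libraries did not overlap in CPM for 5 of the 7 genes in Y79, against 68.9% of all tested genes, and for all 7 in WERI-Rb-1, against 75.9%. The median log2 fold change of the 7 genes was -0.53 in Y79 and -0.61 in WERI-Rb-1, beside -0.09 and -0.11 for all tested genes in the same lines. Calls are adjusted p-values under 0.05 from edgeR's quasi-likelihood test, and the scaling decides the sign of MDM4 and DEK, as given with each gene.

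**Figure D1:**
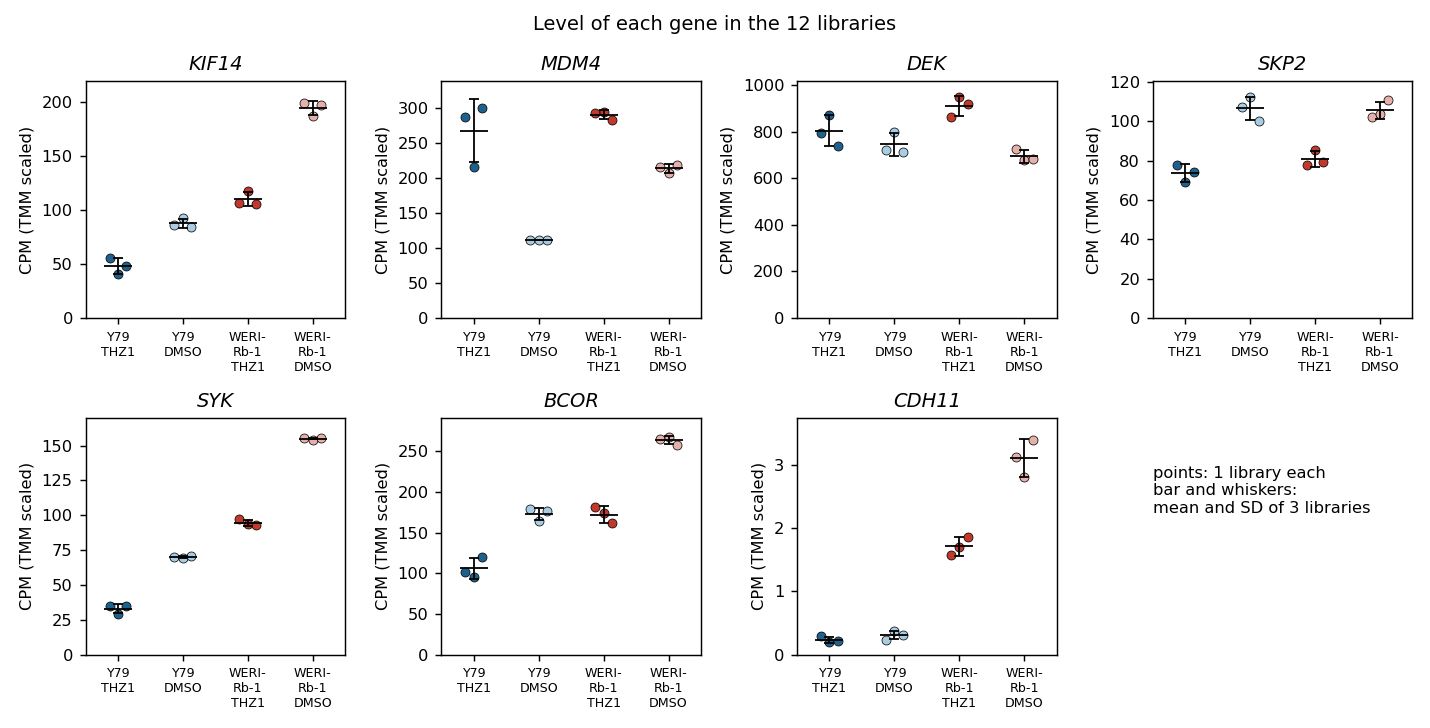
CPM (TMM scaled, linear axes from 0) of each of the 7 genes in the 12 libraries, by line and treatment; points are single libraries, bars and whiskers the mean and SD of 3. KIF14 and SYK take 4 separate ranges, MDM4 in Y79 is above 200 CPM with THZ1 and at 111 CPM with DMSO, and CDH11 stays under 0.4 CPM in Y79.

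The promoters of KIF14, MDM4 and DEK are shown as those of the 1q and 6p genes, which answered THZ1 differently and whose windows each hold a CHR word. RefSeq windows on GRCh38.p14, from 250 bases before to 50 after the start, were found for 6 of the 7 genes, all but CDH11. Capitals mark each CHR word (TTTGAA, a cell cycle gene element) and each CCAAT word on either strand, so that a match on the opposite strand reads as its reverse complement. No capitals overlap between words, and each line is the strand of the gene, 5′ to 3′.
KIF14 promoter, chr1:200620702-200621001, minus strand: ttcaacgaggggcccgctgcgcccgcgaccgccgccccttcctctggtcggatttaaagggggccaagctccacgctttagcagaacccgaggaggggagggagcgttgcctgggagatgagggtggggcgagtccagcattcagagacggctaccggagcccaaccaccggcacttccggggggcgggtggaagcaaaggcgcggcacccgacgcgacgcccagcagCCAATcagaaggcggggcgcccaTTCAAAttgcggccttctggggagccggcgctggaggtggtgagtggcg
MDM4 promoter, chr1:204516156-204516455, plus strand: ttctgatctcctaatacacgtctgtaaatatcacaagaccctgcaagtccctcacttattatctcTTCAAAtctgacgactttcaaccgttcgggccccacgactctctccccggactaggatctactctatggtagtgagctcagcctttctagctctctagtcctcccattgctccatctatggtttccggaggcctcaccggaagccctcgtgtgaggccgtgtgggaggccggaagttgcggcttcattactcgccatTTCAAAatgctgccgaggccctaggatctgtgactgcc
DEK promoter, chr6:18264481-18264780, minus strand: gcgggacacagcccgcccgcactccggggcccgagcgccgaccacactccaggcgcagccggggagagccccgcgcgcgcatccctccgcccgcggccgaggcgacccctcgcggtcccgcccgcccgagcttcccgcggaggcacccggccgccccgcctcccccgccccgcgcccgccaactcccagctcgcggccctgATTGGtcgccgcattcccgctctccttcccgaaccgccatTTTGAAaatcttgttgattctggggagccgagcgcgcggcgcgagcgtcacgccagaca
The KIF14 window holds CCAAT at position -22, counted from the start base to the first printed letter of the word, and a CHR word on the opposite strand at position 1. The DEK window holds a CHR word at -9 and CCAAT on the opposite strand at -49. The MDM4 window holds 2 CHR words on the opposite strand, at -185 and 12, and no CCAAT. Among the windows not printed, 1 of the 3 of SYK holds a CHR word at -131, and of the 2 of BCOR 1 holds CACGTG at -132 and the other CCAAT at -198. Of all 35116 windows, 15.2% hold a CHR word and 34.6% hold CCAAT, so such matches are common. E2F words (TTTCCCGC, TTTGGCGC, TTTCGCGC or TTTGCCGC) occur in 3.31% of all windows and in none of the 9 windows of these genes. The window of SKP2, which fell in both lines as KIF14 did, holds none of the words searched, including CACGTG and TATAAA, which occur in 7.26% and 11.5% of all windows. These are letter matches and no measure of binding.

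KIF14 moves along spindle microtubules and is needed to complete cytokinesis. The gene (ENSG00000118193) lies on the minus strand of chromosome 1, at 200551497 to 200620734 in GENCODE v29 on GRCh38. In Y79 it stood at 55.4, 41.1 and 48.3 CPM with THZ1, against 86.5, 92.3 and 84.3 CPM with DMSO. In WERI-Rb-1 it stood at 106, 118 and 106 CPM with THZ1, against 199, 188 and 198 CPM with DMSO. Every THZ1 library was below every DMSO library of its line, and the 4 groups did not overlap at all. KIF14 fell by 0.86 ± 0.0932 on the log2 scale in Y79 (SE; adjusted p = 1.73e-06, edgeR) and fell by 0.82 ± 0.0914 in WERI-Rb-1 (adjusted p = 2.67e-06). The change in Y79 minus that in WERI-Rb-1 was -0.04, with a 95% interval from -0.33 to 0.26 (adjusted p = 0.911). Per kilobase of annotated exon, KIF14 was at 6.63 and 12.1 RPKM in Y79 with THZ1 and DMSO, and at 15.1 and 26.8 RPKM in WERI-Rb-1 with THZ1 and DMSO.

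The partners of KIF14 in cytokinesis did not move as 1 block. Of 18 genes of the central spindle and cleavage furrow, 6 were called higher and 11 lower with THZ1 in Y79, and 6 higher and 8 lower in WERI-Rb-1. Among all tested genes 29.9% were higher and 38.5% lower in Y79, and 27.7% higher and 37.2% lower in WERI-Rb-1. These shares stand beside the THZ1 counts of every list below. Their median log2 fold change was -0.52 in Y79 and -0.17 in WERI-Rb-1. PLK1, the kinase that starts furrow formation, fell (log2 fold change -2.10 in Y79 and -1.53 in WERI-Rb-1). AURKB, the kinase of the chromosomal passenger complex, fell (log2 fold change -1.87 in Y79 and -1.34 in WERI-Rb-1), and CEP55, which recruits the abscission machinery, fell (-1.72 and -1.63). PRC1, which bundles the central spindle, rose by 1.00 in Y79 and by 1.02 in WERI-Rb-1, and the septin SEPT7 rose by 1.08 and by 1.22. RHOA, the GTPase of the contractile ring, rose by 0.81 in Y79 and by 1.13 in WERI-Rb-1. CIT, a midbody kinase that binds KIF14, rose by 0.21 in Y79 and by 0.40 in WERI-Rb-1. The rises depend on the scale. With plain library sizes 4 of the 18 genes were called higher in Y79 and 5 in WERI-Rb-1. Under scaling to mitochondrial mRNAs none was called higher in either line.

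MDM4 forms a complex with MDM2 and is the second 1q gene of the set. The gene (ENSG00000198625) lies on the plus strand of chromosome 1, at 204516379 to 204558120. In Y79 it stood at 287, 216 and 299 CPM with THZ1, against 111, 111 and 111 CPM with DMSO. In WERI-Rb-1 it stood at 293, 295 and 283 CPM with THZ1, against 215, 207 and 219 CPM with DMSO. Every THZ1 library was above every DMSO library of its line, and Y79 THZ1 replicate 2 was the lowest of its group. The log2 fold change was 1.27 ± 0.0980 in Y79 (2.40-fold; adjusted p = 5.72e-08, edgeR) and 0.44 ± 0.0963 in WERI-Rb-1 (adjusted p = 0.00121). The change in Y79 exceeded that in WERI-Rb-1 by 0.82 ± 0.136 on the log2 scale (adjusted p = 0.00106, edgeR). Of all tested genes 8.74% were called in this direction and 22.0% in either, at any size, and 9.36% had a larger value than MDM4. With plain library sizes MDM4 was higher by 0.71 in Y79 and stood at -0.0073 in WERI-Rb-1, and with scaling to mitochondrial mRNAs it was lower in both, at -0.45 in Y79 and -1.46 in WERI-Rb-1.

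On the TMM scale MDM4 overlapped between the lines with THZ1 and not with DMSO. MDM4 averaged 267 ± 44.8 CPM in Y79 with THZ1 and 290 ± 6.16 CPM in WERI-Rb-1 with THZ1 (SD, n = 3 each), and these ranges overlapped. With DMSO it averaged 111 ± 0.0954 CPM in Y79 and 214 ± 6.09 CPM in WERI-Rb-1, and the ranges were separate. The log2 difference of Y79 from WERI-Rb-1 was -0.12 with THZ1 (95% interval -0.34 to 0.10; adjusted p = 0.304, edgeR) and -0.94 ± 0.0972 with DMSO (adjusted p = 1.42e-06). With plain library sizes the difference with THZ1 was -0.38 and was called (adjusted p = 0.0174, edgeR).

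MDM2, the ubiquitin ligase that pairs with MDM4, moved in opposite directions in the lines on the TMM scale. Its log2 fold change was 0.43 in Y79 and -0.48 in WERI-Rb-1, and the difference of 0.91 ± 0.107 passed the test (adjusted p = 0.000103, edgeR).

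DEK binds and bends DNA in chromatin and was the most abundant of the 7 genes. The gene (ENSG00000124795) lies on the minus strand of chromosome 6, at 18223868 to 18264823. In Y79 it stood at 797, 875 and 741 CPM with THZ1, against 724, 802 and 713 CPM with DMSO. In WERI-Rb-1 it stood at 866, 951 and 921 CPM with THZ1, against 728, 678 and 682 CPM with DMSO. The groups overlapped in Y79 and were separate in WERI-Rb-1. The log2 fold change was 0.11 ± 0.0811 in Y79, with a 95% interval from -0.08 to 0.29 (adjusted p = 0.266, edgeR), and 0.39 ± 0.0812 in WERI-Rb-1 (adjusted p = 0.000814). The change in Y79 minus that in WERI-Rb-1 was -0.28 ± 0.115 (adjusted p = 0.106), and -0.35 without Y79 THZ1 replicate 2 (adjusted p = 0.00345). With plain library sizes the fold change was -0.46 in Y79 and -0.057 in WERI-Rb-1, and with mitochondrial scaling it was -1.61 and -1.503, so the direction for DEK was that of the scale chosen. In RPKM, DEK averaged 184 and 171 in Y79 with THZ1 and DMSO, and 209 and 160 in WERI-Rb-1 with THZ1 and DMSO. Those levels exceeded those of at least 98.6% of the detected genes in every group.

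Among 15 chromatin and splicing proteins linked to DEK, 5 were called higher and 6 lower with THZ1 in Y79, and 7 higher and 5 lower in WERI-Rb-1. The 5 higher in Y79 became 3 without DMSO replicate 1 or 3 of Y79, or with only the Y79 libraries fitted. PARP1, which adds ADP-ribose to DEK, rose by 0.96 in Y79 and by 1.06 in WERI-Rb-1, and the splicing factor U2AF2 rose by 1.1 and by 0.99. DAXX, a histone chaperone that binds DEK, fell (log2 fold change -1.19 in Y79 and -1.01 in WERI-Rb-1). U2AF1, the partner of U2AF2, fell (log2 fold change -1.33 in Y79 and -1.16 in WERI-Rb-1), but a near-identical copy in GRCh38 can share its reads, so its values are uncertain. Under mitochondrial scaling all 15 were called lower in both lines.

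SKP2 recruits p27 (CDKN1B) to the SCF ubiquitin ligase, and the loss of SKP2 is poorly tolerated by cells without RB1. The gene (ENSG00000145604) lies on the plus strand of chromosome 5, at 36151989 to 36184319. In Y79 it stood at 77.8, 69.2 and 74.1 CPM with THZ1, against 107, 112 and 100.4 CPM with DMSO. In WERI-Rb-1 it stood at 77.8, 85.6 and 79.5 CPM with THZ1, against 102, 104 and 111 CPM with DMSO. THZ1 and DMSO libraries were separate in both lines, while the lines overlapped under either treatment. SKP2 fell by 0.53 ± 0.0709 on the log2 scale in Y79 (adjusted p = 1.37e-05, edgeR) and fell by 0.38 ± 0.0706 in WERI-Rb-1 (adjusted p = 0.000305). The difference between these changes was -0.15, with a 95% interval from -0.38 to 0.08 (adjusted p = 0.340).

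The listed machinery around SKP2 was mostly lower on the TMM scale. Of 19 genes of p27 turnover, 4 were called higher and 14 lower with THZ1 in Y79, and 6 higher and 12 lower in WERI-Rb-1, with medians of -0.75 and -0.71. Among all tested genes 29.9% were higher and 38.5% lower in Y79, and 27.7% higher and 37.2% lower in WERI-Rb-1. The list was chosen with earlier results of these data known, so its counts are a description. CUL1, the scaffold of the ligase, fell (log2 fold change -2.17 in Y79 and -1.81 in WERI-Rb-1). CKS2, a paralog of the SKP2 cofactor CKS1B, fell (log2 fold change -2.31 in Y79 and -1.37 in WERI-Rb-1), and CCNE1, the cyclin that directs CDK2 to p27, fell (-2.09 and -2.38). CKS1B itself rose by 0.63 in Y79 and by 0.88 in WERI-Rb-1, both called. SKP1, the adaptor that holds SKP2 in the ligase, rose by 1.5 in Y79 and by 1.66 in WERI-Rb-1. NEDD8, the modifier that activates CUL1, rose by 1.56 in Y79 and by 1.34 in WERI-Rb-1. CDKN1B, whose protein is the substrate, fell (log2 fold change -0.51 in Y79 and -0.23 in WERI-Rb-1), and so did CDKN1A, which encodes the related inhibitor p21 (-0.75 and -1.19). Under mitochondrial scaling none of the 19 was called higher and 17 (Y79) or 18 (WERI-Rb-1) were called lower.

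SYK signals downstream of immune receptors and has been reported as switched on in retinoblastoma although the retina scarcely uses it. The gene (ENSG00000165025) lies on the plus strand of chromosome 9, at 90801787 to 90898549. In Y79 it stood at 34.6, 29.2 and 35.0 CPM with THZ1, against 69.8, 69.4 and 70.8 CPM with DMSO. In WERI-Rb-1 it stood at 97.0, 93.7 and 92.6 CPM with THZ1, against 155, 154 and 155 CPM with DMSO. All 4 groups were separate. SYK fell by 1.09 ± 0.0713 on the log2 scale in Y79 (2.12-fold; adjusted p = 1.10e-08, edgeR) and fell by 0.71 ± 0.0690 in WERI-Rb-1 (adjusted p = 6.83e-07). The fall was deeper in Y79, with a difference of -0.37 ± 0.0986 (adjusted p = 0.0183) that was -0.19 under mitochondrial scaling (adjusted p = 0.425).

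Leukocyte markers were scarce and mixed. PTPRC, the leukocyte surface marker CD45, averaged 0.478 and 0.212 CPM in Y79 with THZ1 and DMSO, and 0 and 0.0580 CPM in WERI-Rb-1 with THZ1 and DMSO. CD14 averaged 0.779 and 0.353 CPM in Y79 with THZ1 and DMSO, and 0.830 and 1.71 CPM in WERI-Rb-1. CSF1R averaged 0.0323 and 0.0251 CPM in Y79 with THZ1 and DMSO, and 0.286 and 0.371 CPM in WERI-Rb-1. With DMSO CD14 and CSF1R averaged higher in WERI-Rb-1, as SYK did, while PTPRC averaged higher in Y79. The summed level of 10 blood markers was 24.8 to 41.8 CPM in Y79 with THZ1 and 9.06 to 10.6 CPM in Y79 with DMSO, and HBA1, a globin gene, averaged 28.7 and 8.95 CPM of it. In WERI-Rb-1 that sum was 4.51 to 8.90 CPM with THZ1 and 3.43 to 4.98 CPM with DMSO, and CD3E had 0 counts in 3 of the 4 groups, all but WERI-Rb-1 with DMSO. The blood sum was higher with THZ1 in every Y79 library and overlapped in WERI-Rb-1, while SYK was lower in both lines, and its part in the SYK values was not tested. Of 21 genes of SYK signalling, 14 had enough counts to be tested, of which 5 were called higher and 7 lower in Y79 and 5 higher and 6 lower in WERI-Rb-1.

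Within that list FYN, a Src family kinase, fell (log2 fold change -1.89 in Y79 and -1.85 in WERI-Rb-1). PIK3CD, the leukocyte-type PI3-kinase subunit, fell (log2 fold change -1.01 in Y79 and -2.02 in WERI-Rb-1), and CBL, a ubiquitin ligase that ends receptor signals, fell (-1.35 and -1.55). PLCG1, a phospholipase that relays SYK signals, rose by 1.04 in Y79 and by 0.38 in WERI-Rb-1, and the adaptor SH3BP2 rose by 0.77 and by 0.49. The adaptor SHC1 rose by 0.45 in WERI-Rb-1 and had a log2 fold change of 0.09 in Y79, which did not pass the test. CD79A, a B-cell receptor subunit, had 22, 8 and 20 counts in Y79 with THZ1 and 0, 0 and 0 counts with DMSO, at least 9.20-fold higher against a floor of 3 counts per library. The rises of PLCG1, SH3BP2 and SHC1 hold on the TMM scale, and under mitochondrial scaling 1 gene in Y79 and 0 in WERI-Rb-1 were called higher.

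BCOR is a subunit of the repressive complex PRC1.1 and a corepressor of BCL6. The gene (ENSG00000183337) lies on the minus strand of chromosome X, at 40049815 to 40177329. In Y79 it stood at 102, 95.6 and 120.2 CPM with THZ1, against 179, 164 and 176 CPM with DMSO. In WERI-Rb-1 it stood at 181, 174 and 161 CPM with THZ1, against 265, 268 and 258 CPM with DMSO. Treated and control libraries were separate in both lines, and Y79 with DMSO overlapped WERI-Rb-1 with THZ1. BCOR fell by 0.71 ± 0.0834 on the log2 scale in Y79 (adjusted p = 4.02e-06, edgeR) and fell by 0.61 ± 0.0827 in WERI-Rb-1 (adjusted p = 1.75e-05). The difference between these changes was -0.09, with a 95% interval from -0.36 to 0.18 (adjusted p = 0.654).

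BCORL1, the paralog of BCOR, fell (log2 fold change -2.15 in Y79 and -2.68 in WERI-Rb-1). Of 13 subunits and partners of PRC1.1, 3 were called higher and 5 lower with THZ1 in Y79, and 5 higher and 6 lower in WERI-Rb-1. In WERI-Rb-1 the 5 became 3 without DMSO replicate 1, 2 or 3, without THZ1 replicate 2, or with a replicate block, and in Y79 DESeq2 called 5 higher. USP7, a deubiquitinase found with PRC1.1 and also a regulator of MDM2 and MDM4, fell (log2 fold change -1.25 in Y79 and -1.18 in WERI-Rb-1). HDAC4, a histone deacetylase, fell (log2 fold change -1.14 in Y79 and -1.21 in WERI-Rb-1), and HDAC3 rose by 0.88 and by 1.06. SKP1, a subunit of PRC1.1 as well as of the SKP2 ligase, rose most in the list in both lines. BCL6, the DNA-binding repressor that recruits BCOR, had 0 counts in all 6 Y79 libraries, which allows up to 3 counts in each. In WERI-Rb-1 BCL6 had 49, 62 and 35 counts with THZ1, against 21, 24 and 30 counts with DMSO, and a log2 fold change of 1.53 (adjusted p = 0.0180, edgeR). Under mitochondrial scaling none of the 13 was called higher and 11 were called lower in each line.

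CDH11 is a mesenchymal cadherin whose loss has been linked to tumour progression, and it was scarce in these cells. The gene (ENSG00000140937) lies on the minus strand of chromosome 16, at 64943753 to 65126112, and shares 254 exon bases, 1.90% of its exons, with the unclassified gene AC010533.1 on the same strand. In Y79 it had 8, 4 and 5 counts with THZ1, against 10, 15 and 13 counts with DMSO, which are 0.230 ± 0.0511 and 0.309 ± 0.0694 CPM (SD, n = 3 each). In WERI-Rb-1 it had 45, 50 and 54 counts with THZ1, against 133, 115 and 156 counts with DMSO, which are 1.71 ± 0.145 and 3.10 ± 0.298 CPM. The CPM ranges overlapped in Y79 and were separate in WERI-Rb-1. CDH11 fell by 0.86 ± 0.265 on the log2 scale in WERI-Rb-1 (adjusted p = 0.0121, edgeR), a call lost without WERI-Rb-1 DMSO replicate 3 (-0.79; adjusted p = 0.0534). In Y79 the log2 fold change was -0.40 ± 0.354, with a 95% interval from -1.22 to 0.41 (adjusted p = 0.417). It was -0.95 with plain library sizes (adjusted p = 0.0314) and -2.09 with mitochondrial scaling (adjusted p = 9.46e-05), so the call in Y79 depended on the scale. The difference between the changes was 0.46 ± 0.451 (adjusted p = 0.546).

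Of the stromal markers, COL1A1, a collagen gene, was lower in Y79 than in WERI-Rb-1 and made up most of their sum. The summed level of 8 stromal markers was 3.03 to 4.03 CPM in Y79 with THZ1 and 1.86 to 2.67 CPM in Y79 with DMSO, against 53.2 to 55.2 CPM in WERI-Rb-1 with THZ1 and 24.8 to 28.6 CPM in WERI-Rb-1 with DMSO. Between the lines this sum moved with CDH11, and its part in the CDH11 values was not tested. The other stromal markers were mixed. With DMSO TWIST1, a mesenchymal transcription factor, had 0 counts in Y79 and averaged 1.72 CPM in WERI-Rb-1. COL1A2 averaged 0.606 CPM in Y79 and 0.155 CPM in WERI-Rb-1 with DMSO, and PDGFRB averaged 0.321 CPM in Y79 and 0.294 CPM in WERI-Rb-1. Between treatments in WERI-Rb-1 the stromal sum was higher with THZ1 where CDH11 was lower. COL1A1 averaged 52.4 CPM with THZ1 and 24.8 CPM with DMSO there, while PDGFRB averaged 0.186 and 0.294 CPM. POSTN had 0 counts in all 4 groups and LUM in 3. Of 15 cadherins, catenins and linkers, 11 were tested, of which 5 were called higher and 4 lower in Y79 and 5 higher and 2 lower in WERI-Rb-1. The catenin CTNNA2 rose by 1.67 in Y79 and by 1.14 in WERI-Rb-1, and CTNNA1 rose by 0.84 and by 1.00. JUP, a catenin of adhesive junctions, fell (log2 fold change -1.26 in Y79 and -0.79 in WERI-Rb-1), and CTNND1, which steadies cadherins at the membrane, fell (-0.37 and -0.35). ANK3, a membrane anchor, fell by 1.64 in Y79 and had a log2 fold change of -0.66 in WERI-Rb-1 that did not pass the test. CDH1 had 0, 2 and 7 counts in Y79 with THZ1 and 0, 0 and 0 with DMSO, at least 1.77-fold higher against the floor of 3 counts per library, and 2 of its 3 treated libraries were at or under that floor. Under mitochondrial scaling none of the 11 was called higher in either line.

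**Figure D2:**
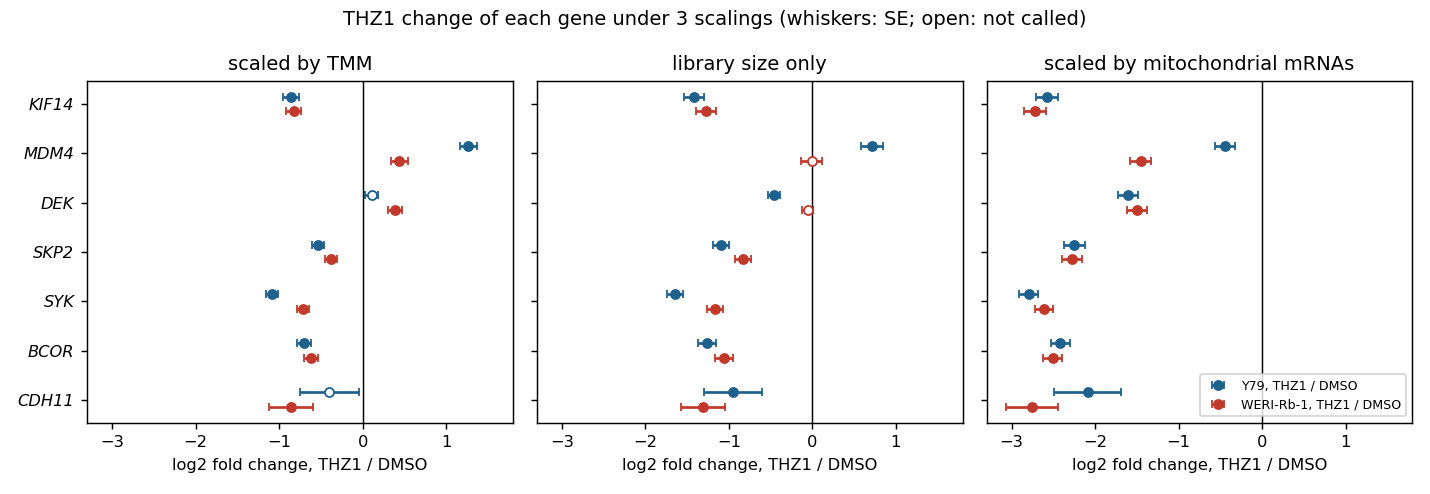
Log2 fold change of THZ1 against DMSO (x axis) for the 7 genes under TMM, plain library size and mitochondrial scaling, Y79 and WERI-Rb-1 drawn separately, Y79 above; whiskers are the SE and open points were not called. KIF14, SKP2, SYK, BCOR and CDH11 are below 0 under each, while MDM4 and DEK change sign.

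The choice of scale shifted the level that counts as no change. The median of all tested genes with THZ1 was -0.09 in Y79 and -0.11 in WERI-Rb-1 with TMM, -0.65 and -0.56 with plain library sizes, and -1.80 and -2.01 with mitochondrial scaling. Against these medians MDM4 and DEK lay above the middle of the genes under all of them in both lines, and KIF14, SKP2, SYK, BCOR and CDH11 lay below it. Each scale moves the genes of a line by nearly the same amount, so these positions were bound to stay alike and are no repeated evidence. The labels mention no added RNA standard, and RNA per cell was not measured here.

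Under DMSO the lines differed in 5 of the 7 genes, all lower in Y79. Among all tested genes 32.6% were lower in Y79 and 32.3% higher, 64.9% in all. The ranges of the lines were separate for those 5 genes, as for 77.9% of all tested genes. The log2 difference of Y79 from WERI-Rb-1 was -1.15 ± 0.0919 for KIF14 (adjusted p = 1.01e-07, edgeR), -1.15 ± 0.0694 for SYK (adjusted p = 5.73e-09) and -0.61 ± 0.0826 for BCOR (adjusted p = 2.14e-05). CDH11 was 9.96-fold lower in Y79, with a log2 difference of -3.32 ± 0.299 (adjusted p = 3.64e-07), and MDM4 was lower as given above. DEK and SKP2 had differences of 0.10 (95% interval -0.09 to 0.29; adjusted p = 0.300) and 0.01 (95% interval -0.15 to 0.18; adjusted p = 0.876). With THZ1, 4 of the 7 were lower in Y79 and none higher, against 36.1% lower and 31.0% higher among all tested genes, 67.1% in all. The ranges were separate for those 4, as for 68.2% of all tested genes. SYK then differed by -1.52, KIF14 by -1.19, BCOR by -0.70 and CDH11 by -2.86. DEK differed by -0.18 (adjusted p = 0.0650), by -0.27 without Y79 THZ1 replicate 2 (adjusted p = 0.000871) and by -0.28 under mitochondrial scaling (adjusted p = 0.0498). These contrasts use the same libraries as the THZ1 comparisons and are no separate evidence.

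The 1q genes were lower in Y79 together with the genes around them. Of 27 tested genes within 2 Mb of KIF14, 22 were lower in Y79 under DMSO and 1 was higher, with a median log2 difference of -1.51. Of 47 tested genes within 2 Mb of MDM4, 37 were lower and 2 higher, with a median of -1.07. The joint set held 72 genes, of which 57 were lower and 3 higher, with a median of -1.20, while all 1516 tested genes of chromosome 1 had a median of -0.11 and 37.4% of them were lower. BCOR had 11 tested neighbours on chromosome X, of which 9 were lower and 1 higher, with a median of -1.04. The neighbours of DEK, SKP2, SYK and CDH11 had medians between -0.15 and -0.01, with 5 of 11, 6 of 16, 7 of 18 and 8 of 19 lower. For DEK the 5 became 3 without WERI-Rb-1 DMSO replicate 1 or 3, and 2 without Y79 DMSO replicate 1. The single neighbour higher in Y79 became 2 for KIF14 without WERI-Rb-1 DMSO replicate 3, and for BCOR without Y79 THZ1 replicate 2. SYK and CDH11 were lower in Y79 while the medians within 2 Mb of them were -0.13 and -0.01. Of the genes next to SYK, DIRAS2 (-2.30), GADD45G (-1.26) and NFIL3 (-0.79) were called lower in Y79, and AUH (-0.01) was not. The tested genes of chromosome 9 had a median of -0.35, and 46.6% of them were lower. All the tested neighbours of CDH11 lay on 1 side of it, the nearest, BEAN1, 1301185 bases away. DNA copy number was not measured in these libraries.

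**Figure D3:**
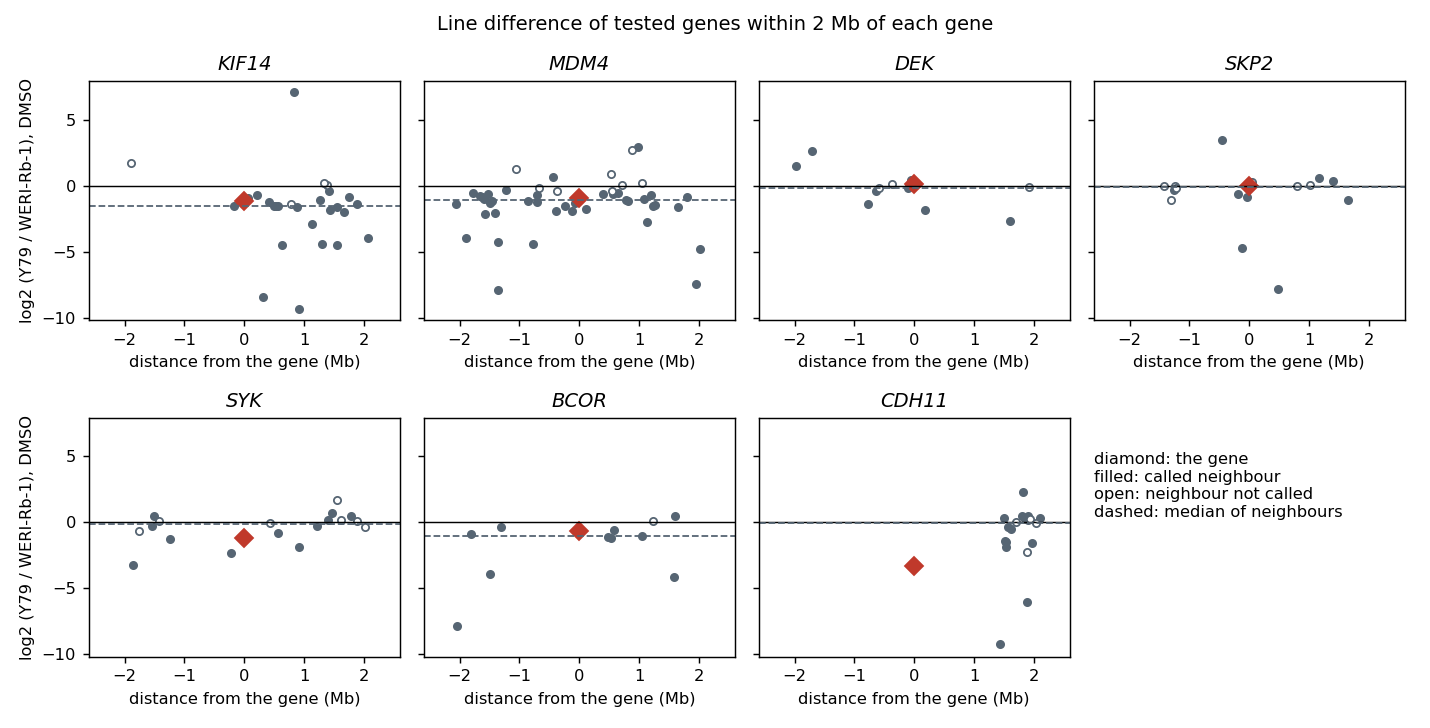
Log2 difference of Y79 from WERI-Rb-1 under DMSO for the tested genes within 2 Mb of each of the 7 genes, against distance in Mb; points are single genes (filled where called), diamonds the gene itself and dashed lines the median. Most points around KIF14, MDM4 and BCOR lie below 0, with medians of -1.51, -1.07 and -1.04.

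With THZ1 the neighbours of MDM4 were mixed, with more of them lower than higher. Of the 47, 9 were called higher and 25 lower in Y79, with a median of -0.70, and 11 higher and 27 lower in WERI-Rb-1, with a median of -0.57. The shares over all tested genes were 29.9% higher and 38.5% lower in Y79, and 27.7% higher and 37.2% lower in WERI-Rb-1. The adjacent PIK3C2B, a PI3-kinase, fell (log2 fold change -1.53 in Y79 and -1.51 in WERI-Rb-1), and LRRN2 on the other side fell (-2.55 and -1.67). PPP1R15B, a phosphatase subunit of the stress response, rose by 0.26 in Y79 and by 0.38 in WERI-Rb-1 on the TMM scale, and NFASC, a cell adhesion gene, rose by 0.59 and by 0.31. KDM1B, a histone demethylase, lies 15 bases from DEK and changed by 0.35 in Y79 and by 0.68 in WERI-Rb-1, both called, beside 0.11 and 0.39 for DEK. LMBRD2 lies 28 bases from SKP2 and had log2 fold changes of 0.29 in Y79 and 0.27 in WERI-Rb-1, neither called, where SKP2 was lower.

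**Figure D4:**
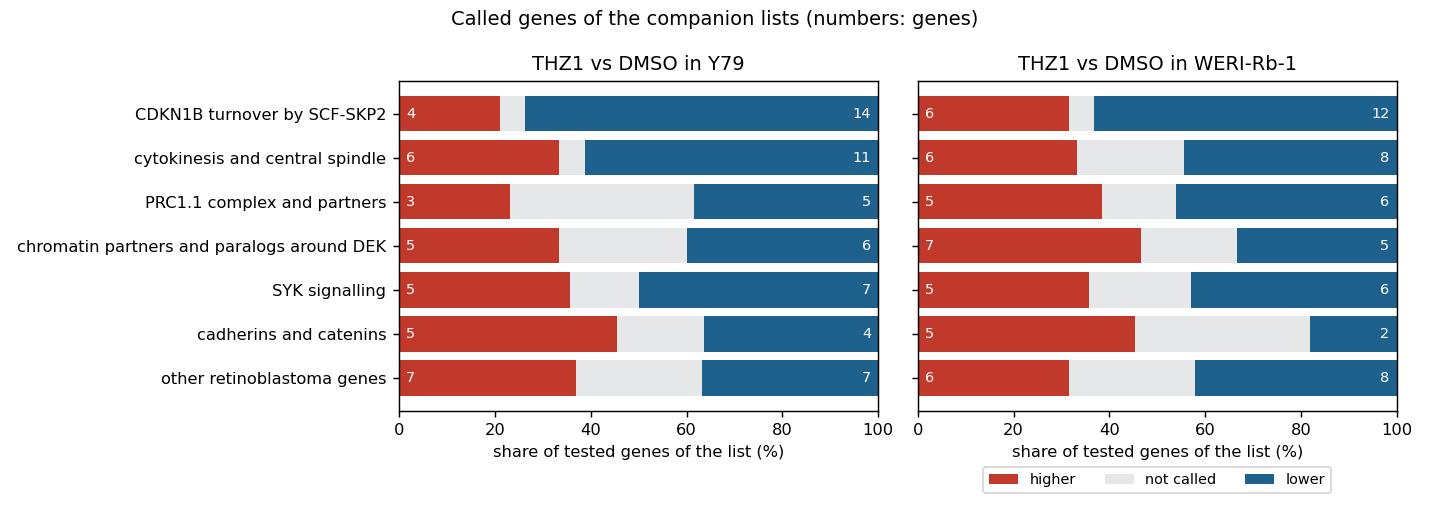
Share of the tested genes of each of 7 lists called higher or lower with THZ1 (x axis, percent of genes), Y79 left and WERI-Rb-1 right. The p27 turnover list around SKP2 has the most falls, 14 of 19 genes in Y79 and 12 of 19 in WERI-Rb-1. Of all tested genes 38.5% fell in Y79 and 37.2% in WERI-Rb-1.

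Other genes that are gained, lost or mutated in retinoblastoma were also split. Of 20 listed, 19 were found in the table and tested, with 7 called higher and 7 lower with THZ1 in Y79, and 6 higher and 8 lower in WERI-Rb-1. OTX2, a photoreceptor transcription factor, fell (log2 fold change -1.94 in Y79 and -1.53 in WERI-Rb-1). MYCN fell (log2 fold change -0.79 in Y79 and -0.39 in WERI-Rb-1). E2F3, which lies on 6p with DEK, fell (log2 fold change -1.12 in Y79 and -1.14 in WERI-Rb-1), and CREBBP, an acetyltransferase mutated in some tumours, fell (-1.38 and -0.98). RB1 itself averaged 102 ± 13.7 CPM in Y79 with THZ1 and 49.7 ± 1.02 CPM in Y79 with DMSO, a log2 fold change of 1.03 (adjusted p = 0.000123, edgeR), and 0.104 and 0.0290 CPM in WERI-Rb-1 with THZ1 and DMSO. CDKN2A, the locus of p16 and p14ARF, rose by 2.15 in Y79 and by 1.38 in WERI-Rb-1. TERT, the telomerase catalytic subunit, rose by 1.32 in Y79 and had a value of 0.55 in WERI-Rb-1 that did not pass the test. PRELP, a 1q gene of the extracellular matrix, had 30, 17 and 9 counts in WERI-Rb-1 with THZ1, against 2, 8 and 0 counts with DMSO, and a log2 fold change of 2.98 (adjusted p = 0.0356). Under mitochondrial scaling none of the 19 was called higher in either line.

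Genes whose pattern over the 4 groups was nearest to each of the 7 were found by the distance between 3 log2 differences (THZ1 in each line, and Y79 against WERI-Rb-1 under DMSO). The candidates were 10120 protein-coding genes. SKP2 had the closest match, UBE2M, at a distance of 0.0361, followed by AMZ2 (0.0442) and B4GALT3 (0.0654). UBE2M, an enzyme that attaches NEDD8 to CUL1, is in the p27 turnover list, but a link behind the like patterns was not tested. BCOR was nearest to MYO10 (0.0621), DEK to MTRF1L (0.0789), SYK to CXorf38 (0.0846), KIF14 to STX17 (0.137) and MDM4 to KLHL15 (0.146). CDH11 had no near match, with GABBR2 first at 0.372.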

How the data were processed

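Per the labels' protocols, RNA from 12 cultures went into NEBNext Ultra libraries. The authors deposited raw gene counts, whole numbers with no normalization that the values show, in 1 table of 27505 features (19974 Ensembl genes and 7531 unannotated loci). The submitters' processing notes name Cufflinks and GRCh38. The aligner, counting rule and use of strand were not given in the sources used here. All 19974 Ensembl identifiers were found in GENCODE v29, and 27 symbols that had been turned into dates were restored from them. The exons of 6 of the 7 genes overlap no other gene.

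The counts were tested in R 4.3.3 with edgeR 4.0.16. Features were filtered by filterByExpr defaults, which kept 18844 (14865 Ensembl genes, all 7 genes described here among them), and scaled by TMM. A robust quasi-likelihood model with 1 mean per group was fitted to all 12 libraries (8 residual degrees of freedom). The 5 two-sided contrasts were THZ1 against DMSO in each line, the difference of these changes, and Y79 against WERI-Rb-1 under each treatment, with Benjamini-Hochberg adjustment over all tested features of a contrast. SE is the size of a log2 fold change over the square root of its F, and 95% intervals use 8 degrees of freedom and are not adjusted. CPM is counts-per-million by TMM-scaled totals, and RPKM divides it by the annotated exon length in kilobases. A fold against a group at 0 uses a floor of 3 counts per library. Intervals and floors cover counting error or the spread between these samples only. The script was tested on simulated data with known changes. DESeq2 1.42.0 was an alternative. Tables were made in Python 3.11.15 (pandas 2.3.3, numpy 2.4.6), intervals with scipy 1.17.1, and figures with matplotlib 3.10.9.

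The 7 genes, 8 gene lists (143 entries, 142 found, 1 list not reported here) and marker lists were chosen with earlier results of these data known, so counts over them are descriptions. All 7 genes were named in each comparison. From each list and THZ1 contrast, the 2 called genes with the largest change in each direction were named, with their values in the other line beside them. CIT, MDM2, CKS1B, CDKN1A, CDKN1B, MYCN and RB1 were named outside that rule, for their known roles and after their values had been seen. Neighbours were the tested Ensembl genes within 2 Mb to each side, the nearest being named by position. For each gene the nearest pattern was sought among protein-coding genes with an average log2 CPM (prior count 2) of at least 3. The alternatives were RLE factors, plain library sizes, scaling to 13 mitochondrial mRNAs, no filter, DESeq2, a fit to the groups compared alone, a replicate block and leaving out each library.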

Additional observations from a re-analysis of the deposited data

Results flagged for a closer look

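The THZ1 response of MDM4 differed between the lines. The log2 fold change in Y79 exceeded that in WERI-Rb-1 by 0.82 (adjusted p = 0.00106, edgeR's quasi-likelihood test of the difference). In TMM-scaled CPM, every treated library was above every control library of its line.

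The THZ1 response of SYK differed by -0.37 (adjusted p = 0.0183, the same test), with SYK lower in 3 of 3 treated libraries of each line and the larger fall in Y79. Under mitochondrial scaling the difference was -0.19 and was not called (adjusted p = 0.425, the same test).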

How the results depend on the processing

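The numbers of the 7 genes called were the same or within 1.5 times of those reported in 178 recounts and moved further in 10. Of the refitted fold changes, 637 kept their side of the threshold without a reversal, 12 were called anew, 2 lost their call and 7 reversed. A change of sign counted as a reversal only where the fold change was called before or after it. Uncalled values near 0 could change sign among the 637. The KIF14 difference of the THZ1 changes, for 1, ran from -0.137 to 0.0678 when single libraries were left out. Plain library sizes and mitochondrial scaling both left 0 genes called higher with THZ1 in WERI-Rb-1, and mitochondrial scaling left 0 higher and 7 lower in Y79. RLE factors and DESeq2 each called 2 higher in Y79, the addition being DEK at 0.21 (adjusted p = 0.0432 with RLE factors and 0.0156 with DESeq2). For the difference of the THZ1 changes, plain library sizes called 2 lower and mitochondrial scaling 0, and for Y79 against WERI-Rb-1 with THZ1 plain library sizes called 7 lower. The fold changes that reversed were those of MDM4 in WERI-Rb-1 (-0.0073 with library sizes, -1.46 with mitochondrial scaling), of MDM4 in Y79 (-0.45 with mitochondrial scaling), of DEK in WERI-Rb-1 (-0.057 and -1.503) and of DEK in Y79 (-0.46 and -1.61). These shifts follow from the scales' own construction, since they move all genes of a line.

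Leaving out 1 library at a time gave 1 to 2 genes called lower in the difference of the THZ1 changes, the 2 being without Y79 THZ1 replicate 2, when the share of all tested genes called there was 35.0% in place of 22.0%. Without Y79 THZ1 replicate 1, SKP2 passed the test between the lines with THZ1 (-0.19; adjusted p = 0.0493), and without Y79 THZ1 replicate 2 DEK did (-0.27; adjusted p = 0.000871). Same-numbered samples did not deviate together (correlations of deviations from -0.0744 to 0.00586). These correlations cannot tell whether same-numbered samples were prepared together. With a replicate block, 1 gene was called higher and 4 lower in Y79, 2 higher and 5 lower in WERI-Rb-1, and MDM4 in Y79 was at 1.25. The counts over all 8 lists moved by over 1.5 times in 54 recounts and not in 554, and those over neighbours in 20 and not in 246. The recounts over neighbours were chosen after seeing the data. CDH11 in Y79, with 4 to 15 counts per library, was called lower with library sizes (-0.95) and mitochondrial scaling (-2.09).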
